A study of Mangifera indica with 4 samples.

Results

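Locus 2 is a group of assembled transcripts in an RNA-seq study of mango flesh. It held 51.3% of all recovered reads, more than any other locus over the 4 libraries together and in 3 of them. In the remaining one, of healthy fruit 5 days after harvest, locus 3 held 25.4% against 21.6%. Its members were found by name, as every listed transcript whose identifier starts with Locus_2_Transcript_, which gave 180 of the 30582 transcripts. The identifiers count 542 transcripts in the locus, of which 180 are listed in the tables. The locus was selected on its share of the reads and its ratios between groups, so its totals and ratios are given as a description, with no test. The study took total RNA from mesocarp, the edible flesh, of Mangifera indica cultivar Alphonso in 4 groups: healthy fruit 5 days after harvest (table green), healthy fruit 10 days after harvest (mid ripe), and spongy fruit of the same 2 ages. Each group is 1 library, so no difference below has a replicate check and no p-value of its own. Neither the number of fruit behind a library nor whether they were pooled is given in the labels.

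Mango is a climacteric fruit, whose flesh softens, sweetens and turns from pale to orange in the days after harvest as ethylene rises. Spongy tissue is a disorder of Alphonso in which part of the flesh becomes pale, soft and corky while the skin looks sound. A locus in a de novo assembly is a cluster of contigs that share sequence, and its transcripts are alternative paths through that cluster: splice forms, alleles, copies of a gene family or fragments. Identifiers of this form, with a locus, a transcript number, a confidence and a length, are those the Oases assembler writes, although no source names the assembler. The files pair no transcript with a gene name, and 0 of the 180 identifiers matched the names of the mango reference annotation, so members are called by their transcript number and length, with no function.

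Reads are the whole reads recovered from the deposited tables, and a level is reads divided by the size factor of the library. The size factors were 1.84 in the healthy 5-day library, 0.389 in the healthy 10-day library, 1.27 in the spongy 5-day library and 1.11 in the spongy 10-day library. Libraries are always given in that order, healthy before spongy and 5 days before 10. The recovered depth was 52778920, 75039529, 62356294 and 56590752 reads. The healthy library of 10 days had the most reads but the lowest size factor, so a read there counts for more in a level than anywhere else. Fold intervals are exact (Clopper-Pearson) 95% intervals for the split of reads between 2 libraries and cover counting error only. How a read that matched several transcripts of the locus was counted is not stated in the sources, so members may share reads and are not independent. Of the 569 locus 2 values of 1000 reads or more only 15.6% came out within 0.05 of a whole number, against 98% of the 150 smaller ones, so the larger read numbers are rounded estimates.

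Locus 2 held 11420010, 54233557, 31979025 and 28868164 reads. That is 21.6% of the library in the healthy 5-day library (Wilson 95% interval 21.63 to 21.65), 72.3% in the healthy 10-day library (72.26 to 72.28), 51.3% in the spongy 5-day library (51.27 to 51.30) and 51.0% in the spongy 10-day library (51.00 to 51.03). The Wilson intervals take the recovered reads as independent and cover counting error only. If a read that matched several transcripts was counted more than once, these are not shares of sequenced reads. In the healthy fruit the share was lowest at 5 and highest at 10 days, and both spongy libraries lay between them. In bulk flesh, fewer cells that carry a transcript and less of it per cell cannot be told apart. The reads were spread over many members in all 4 libraries alike: 21, 22, 22 and 21 transcripts together took 50% of the locus, and 69, 66, 69 and 70 took 90%. The member with the most reads was transcript 209 in the healthy 5-day library, with 3.15% of the locus, transcript 496 in the healthy 10-day library, with 3.01%, and transcript 272 in both spongy libraries, with 2.92% and 2.98%.

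**Figure D1:**
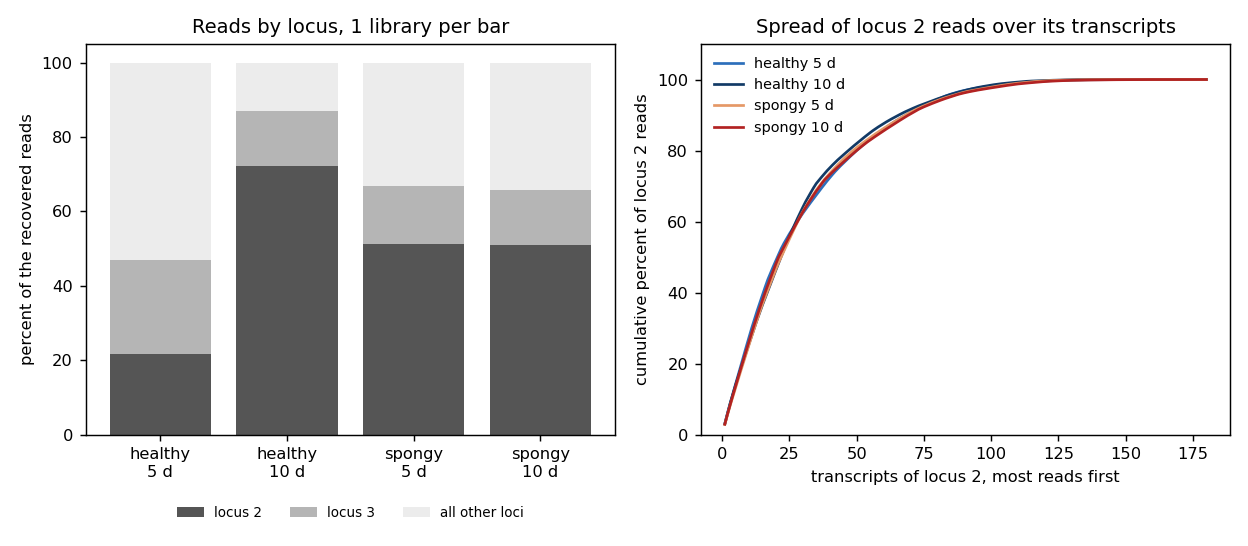
Left: percent of the recovered reads (y axis) in locus 2, locus 3 and all other loci, 1 bar per library. Right: cumulative percent of locus 2 reads (y axis) over its 180 transcripts ordered by reads (x axis), 1 line per library. Locus 2 takes 21.6% of the reads in the healthy 5-day library and 72.3% at 10 days, while the 4 cumulative lines nearly coincide.

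The longest members carried large read numbers. Locus_2_Transcript_496_542_Confidence_0.325_Length_10117, the longest at 10117 nt and the one with the highest mean level, had 308117, 1630162, 781233 and 747549 reads. Transcript 409, the fourth longest at 9659 nt, had 301210, 1590609, 760729 and 728815 reads, within 5% of transcript 496 in every library. Transcripts 530 (9882 nt) and 502 (9690 nt), the other two longest, had 108235, 639914, 323358 and 301654 reads and 152966, 714355, 442279 and 421803 reads. All 4 were lowest in the healthy 5-day library and highest in the healthy 10-day library.

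Per kilobase of length the order was different. Transcript 45, of 1577 nt, had the highest mean level per kilobase, 842852 normalized reads, from 242606, 1607544, 617439 and 628919 reads. Transcript 369 (1201 nt) followed with 345736, transcript 350 (323 nt) with 339829, transcript 242 (954 nt) with 312902 and transcript 213 (3717 nt) with 308169. At the other end, transcript 284 of 574 nt had 35.0 normalized reads per kilobase. The median of the 180 was 54821, so members of 1 locus spanned more than 4 orders of magnitude per unit length.

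**Figure D2:**
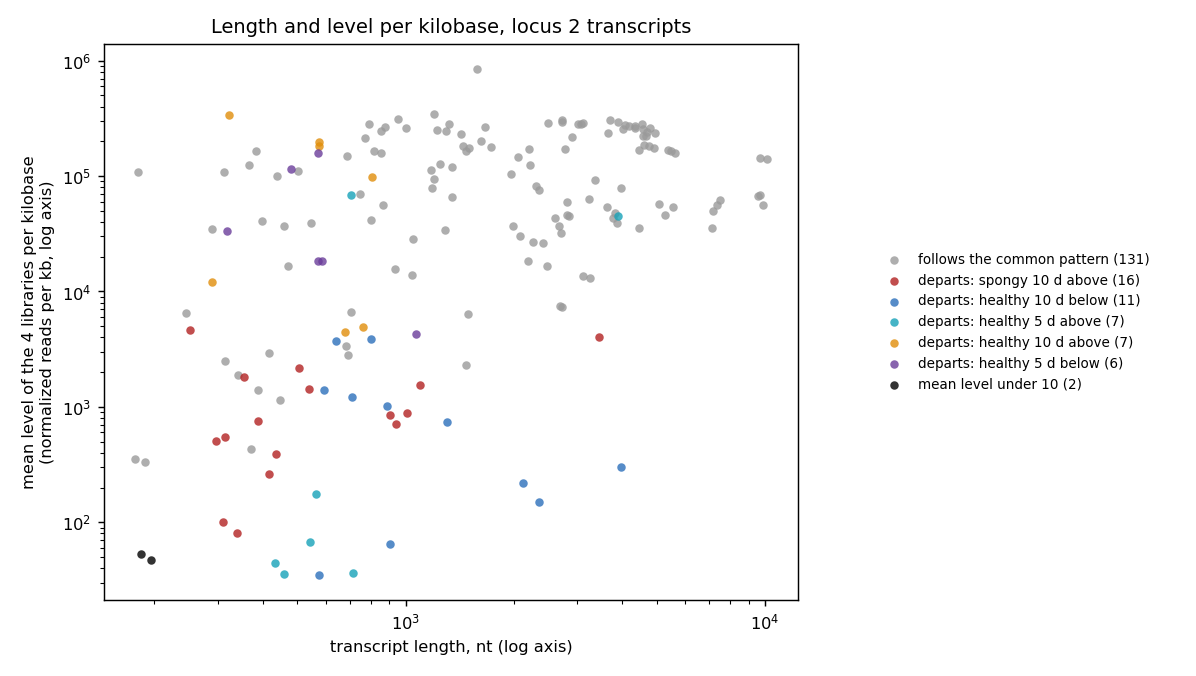
Transcript length in nt (x axis, log scale) against the mean level of the 4 libraries per kilobase (y axis, normalized reads per kb, log scale), 1 point per transcript, coloured by whether it follows the common pattern of the locus or how it departs. Every transcript of 4000 nt or more follows the pattern, and the departing ones lie mostly under 1000 nt and at low level.

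Length and level went together. Over the 180 members Spearman's rho between length and mean level was 0.78, and 0.47 when the level was taken per kilobase. Over all transcripts of the table the first was 0.80. The confidence printed in the identifiers, a value of the assembly, had a rho of 0.92 with the mean level and 0.86 with length. These are descriptions over points that share libraries and possibly reads. The 32 members of 4000 nt or more took 52.1%, 55.1%, 53.6% and 53.4% of the locus reads, and the 35 under 500 nt took 0.792%, 0.891%, 0.899% and 1.001%. Short length did not preclude a high level per kilobase, as transcript 350 showed.

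A common pattern of the locus was set as the median, over the 178 members with a mean level of at least 10, of the log2 levels (with 1 added) centred on each member's mean over the libraries. It lay at -2.05 in the healthy 5-day library, 2.18 in the healthy 10-day library, -0.14 in the spongy 5-day library and -0.01 in the spongy 10-day library. On this pattern the healthy 10-day library stood 18.8-fold above the healthy 5-day library. The spongy 5-day library stood 3.76-fold above the healthy one of that age, while the spongy 10-day library was 1.09-fold its own level at 5 days. The pattern was taken from the members themselves, so that most follow it is in part how it was made.

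A member was counted as following when it lay within 2-fold of the pattern in all 4 libraries, and as departing otherwise. By that rule 131 of the 178 followed and 47 departed, while transcripts 93 (183 nt) and 431 (196 nt) fell under the level minimum. Among all 29539 transcripts with that level, locus 2 included, 0.708% were within 2-fold of the pattern. Outside locus 2 they were 78 of 29361 transcripts, from 67 loci, and 7 of these were among the 644 compared of locus 3. Because a different scaling moves all members of a library together, the distance from the pattern hardly depends on the size factors. With the same total per library 131 followed and 48 departed.

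The followers took nearly all reads of the locus, 97.0%, 98.3%, 98.4% and 98.4%. All 131 were lowest in the healthy 5-day library and highest in the healthy 10-day library, an order that the rule for following all but fixes. Their highest level exceeded their lowest by a log2 range of 2.48 to 5.66, with a median of 4.30. In 96 spongy fruit was a little higher at 10 than at 5 days, and in 35 a little lower. At least 1000 reads in every library were found for 120 of them.

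**Figure D3:**
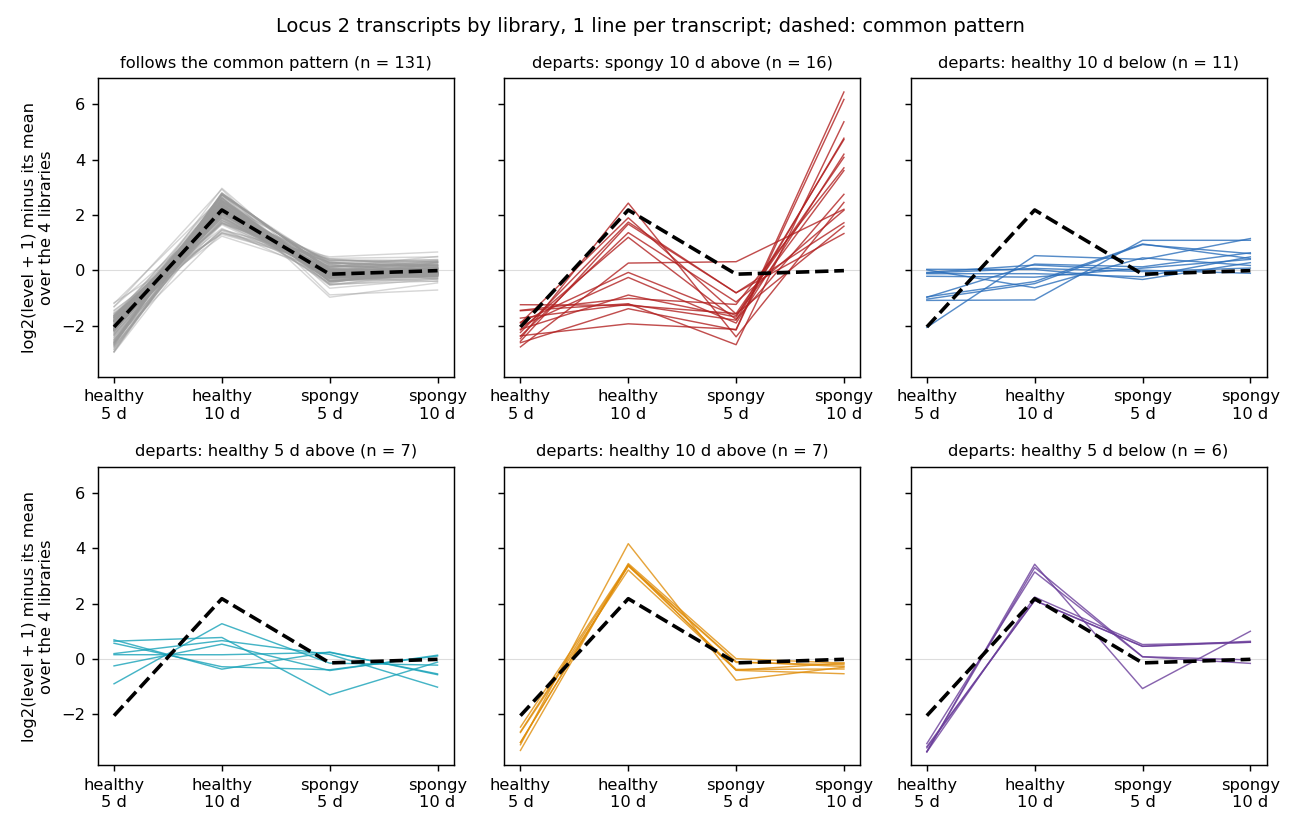
Log2 level (1 added) minus its mean over the 4 libraries (y axis) in each library (x axis), 1 line per transcript, in 1 panel for the 131 that follow the common pattern and 1 panel for each of the 5 ways of departing. The dashed line is the pattern, lowest in the healthy 5-day library and highest in the healthy 10-day library, and the departing sets differ from it in the library and direction that head each panel, with deviations of up to 6.46 in the spongy 10-day library.

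Nearest to the pattern was transcript 205 (4566 nt), with a root mean square distance of 0.03 on the log2 scale and 303400, 1254898, 793448 and 735676 reads. Transcripts 219 (4086 nt) and 213 (3717 nt) came next, with 304073, 1220220, 768237 and 701418 reads and 310644, 1231978, 774734 and 705446 reads. Transcript 216 (4024 nt) had 271635, 1124671, 692744 and 633455 reads. The fifth was a small one, transcript 392 of 1050 nt, with 8114, 31194, 19449 and 20635 reads. It held far fewer reads than the others but similar proportions, with an 18.1-fold higher level in healthy fruit at 10 than at 5 days against 19.5-fold for transcript 205.

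Of the 10 members with the highest mean level, transcripts 496, 409, 45, 205 and 213 are given above. Transcript 209 (4547 nt) had 359353, 1401686, 852699 and 773428 reads. For transcript 248 (4799 nt) the numbers were 277821, 1379655, 792959 and 762848 reads, and for transcript 233 (4360 nt) 295679, 1212999, 864299 and 815860 reads. Transcript 272 (4959 nt) had 334151, 1149225, 934125 and 859437 reads, and transcript 221 (3891 nt) 314866, 1234080, 778382 and 702068 reads. All 10 followed the pattern. Transcript 45, the shortest of them, departed the most, by up to 0.55 on the log2 scale.

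Followers still differed among themselves by more than counting error. The ratio of healthy fruit at 10 over 5 days ran from 5.60-fold (4.85 to 6.46) in transcript 83 (388 nt, 360, 427, 660 and 387 reads) to 50.5-fold (49.99 to 51.0) in transcript 369 (1201 nt, 44879, 479878, 268710 and 212352 reads), with quartiles of 14.9 and 26.9. For spongy over healthy flesh at 5 days the range was 1.17-fold in transcript 73 (472 nt, 3161, 9570, 2549 and 3197 reads) to 10.5-fold in transcript 14 (383 nt, 8519, 58654, 61806 and 56232 reads). At 10 days healthy fruit stood above spongy fruit, as the rule requires of a follower, by between 1.62-fold in transcript 67 (684 nt, 523, 1606, 2861 and 2829 reads) and 12.5-fold in transcript 94 (503 nt, 17767, 71917, 16554 and 16368 reads). Between the stages of spongy fruit the followers moved little, from 0.670-fold in transcript 83 to 1.72-fold in transcript 162 (1489 nt, 3004, 9741, 5462 and 8202 reads). The members at the ends of these ranges were 383 to 1489 nt long, shorter than the median follower.

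Many followers fell into sets with nearly equal read numbers. Among the 157 members with at least 50 reads in every library, 29 of 12246 pairs agreed within 5% in all 4 libraries. They linked 34 transcripts into 12 sets. In 15 of the 29 pairs the numbers within the locus were at most 5 apart. How many of all 12246 pairs stand so close was not counted. The set with the most members held transcripts 372, 374, 510, 512, 521, 532, 535 and 536, of 3121 to 5634 nt, with 113984 to 125415 reads in the healthy 5-day library and 1017912 to 1073941 at 10 days. Its members were 38.6-fold to 44.5-fold higher in healthy fruit at 10 than at 5 days and 6.09-fold to 6.64-fold higher in spongy than in healthy flesh at 5 days. A second set, transcripts 205, 213, 219 and 221, of 3717 to 4566 nt, was 18.5-fold to 19.5-fold and 3.58-fold to 3.79-fold higher in the same comparisons. Both sets follow the pattern within 2-fold, yet the first rises more than the pattern and the second matches it. The first took 8.23%, 15.4%, 12.9% and 11.2% of the locus reads, the second 10.8%, 9.11%, 9.74% and 9.85%.

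Smaller sets had other ratios. Transcripts 129, 130, 131 and 132, of 2723 to 3068 nt, were 19.9-fold to 20.7-fold higher in healthy fruit at 10 than at 5 days. The pair 494 and 495, of 2688 and 2722 nt, was only 11.1-fold and 11.4-fold higher, and had 0.0584% of the locus reads in the healthy 10-day library together. Transcripts 523 and 524, of 3112 and 3260 nt, were 14.1-fold and 14.4-fold higher. The remaining sets were 133 with 134, 194 with 336, 246 with 247, 409 with 496, 426 with 537, 517 with 519 and, among the departures, 437 with 439. Members of a set may count the same reads, so they are not separate observations. With 1 transcript kept per set, 110 members followed and 46 departed.

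Short members were not all departures. Transcript 154, the shortest at 177 nt, had 28, 68, 34 and 36 reads and followed. Transcript 36, at 180 nt, had 9401, 16490, 15731 and 20116 reads and also followed. The next in length, transcript 93 of 183 nt, had 0, 3, 2 and 33 reads and was under the level minimum. Among members under 500 nt 18 of 33 followed, between 500 and 1000 nt 17 of 40, between 1000 and 2000 nt 26 of 30, between 2000 and 4000 nt 38 of 43, and from 4000 nt on 32 of 32. By mean level the followers were 2 of 11 between 10 and 100, 5 of 21 between 100 and 1000, 8 of 18 between 1000 and 10000, 31 of 39 between 10000 and 100000, and 85 of 89 above. Departures were thus found mostly among short members of low level, with a median length of 574 nt against 2213 nt for followers and a median of 1408 against 99313 normalized reads per kilobase. The parts of length and of level in this were not tested.

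The limit of 2-fold cut through a continuous range. Just inside it lay transcripts 42 (366 nt), 14 and 383 (1423 nt), whose largest deviations were 0.95, 0.91 and 0.90 on the log2 scale. Just outside lay transcripts 351 (569 nt), 28 (290 nt) and 439 (584 nt), at 1.01, 1.04 and 1.12. Transcript 42 had 22822, 33516, 45873 and 51553 reads, and transcript 351 7212, 113130, 43800 and 32544 reads. With a limit of 1.5-fold 102 members followed and 76 departed, and with 3-fold 145 and 33.

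The 47 departures were sorted by the library and the side of their largest deviation, a grouping chosen after their values were seen. In 16 the spongy 10-day library lay above the pattern, in 11 the healthy 10-day library lay below it, in 7 the healthy 5-day library lay above it, in 7 the healthy 10-day library lay above it, and in 6 the healthy 5-day library lay below it. When the reads of the deviating library alone were moved to the nearer end of their exact Poisson 95% interval, 46 of the 47 still lay beyond 2-fold. The other libraries were held fixed, so their counting error is not covered. A library with under 20 reads was found in 13 of them. Departing members took 3.03%, 1.73%, 1.62% and 1.58% of the locus reads.

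The set raised in the spongy 10-day library departed the most, by 1.34 to 6.46 on the log2 scale. Locus_2_Transcript_192_542_Confidence_0.006_Length_251, a short one of 251 nt, had 17, 5, 14 and 5139 reads. Its level ratio was 419-fold (249.6 to 767) for spongy fruit at 10 over 5 days and 361-fold (154 to 1111) for spongy over healthy flesh at 10 days, where 5 to 17 reads in the other libraries leave the size uncertain. Transcript 187 (943 nt) had 9, 5, 9 and 2920 reads, a ratio of 371-fold (195 to 811) of the spongy stages. The libraries other than the spongy 10-day library held at most 9 reads of it. For transcript 175 (505 nt) the libraries held 67, 17, 19 and 4750 reads, and the ratio of the spongy stages was 286-fold (183 to 475).

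More members of this set showed the same shape with more reads in the low libraries. Transcript 185 (1100 nt) had 130, 39, 85 and 7249 reads and was 97.4-fold (78.7 to 122) in spongy fruit at 10 over 5 days. Transcript 190 (1010 nt) had 53, 27, 50 and 3850 reads, which gave 87.9-fold (66.6 to 119). Transcript 188 (903 nt) had 68, 50, 51 and 3157 reads, or 70.7-fold (53.6 to 95.2). In these 3 the libraries other than the spongy 10-day library held 27 to 130 reads, and that library 3157 to 7249.

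Lower in reads were transcripts 88 (297 nt), 168 (315 nt) and 173 (435 nt), with 24, 5, 13 and 627 reads, 31, 9, 25 and 705 reads and 23, 18, 19 and 673 reads. Their spongy stages differed by 55.1-fold (32.0 to 104), 32.2-fold (21.6 to 50.1) and 40.5-fold (25.7 to 67.6). In transcripts 88, 168, 185 and 192 the other 3 levels lay within 2-fold of each other, so that the healthy 10-day library did not stand out.

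Transcript 103 (538 nt) had 132, 289, 119 and 2423 reads, with a ratio of 10 over 5 days of 10.3-fold (8.38 to 12.8) in healthy and 23.3-fold (19.3 to 28.2) in spongy fruit. Transcript 428 (416 nt) had 11, 81, 8 and 235 reads, with 34.8-fold (18.4 to 72.4) and 33.5-fold (16.7 to 78.6) for the same ratios. Transcript 172 (355 nt) had 116, 334, 190 and 1669 reads, and transcript 98 (389 nt) 76, 230, 66 and 531 reads. These 4 were thus higher at 10 days in both kinds of fruit. In transcript 428 spongy and healthy flesh at 10 days were level, at 1.02-fold (0.787 to 1.33).

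Transcript 182, of 3446 nt, was the longest of the set and the deepest, with 3227, 10888, 6014 and 23298 reads. Its spongy stages differed by 4.42-fold (4.30 to 4.55), and at 10 days spongy fruit was 0.751-fold (0.734 to 0.768) relative to healthy fruit. Transcripts 60 (310 nt) and 92 (339 nt) had few, 3, 8, 27 and 91 reads and 3, 19, 10 and 56 reads. The ratio of spongy to healthy flesh at 10 days was 3.99-fold (1.94 to 9.52) for the first and 1.03-fold (0.605 to 1.84) for the second, whose interval holds 1. Of the members under the level minimum, transcript 93 stood highest in the spongy 10-day library, while transcript 431, with 2, 7, 1 and 19 reads, was about level between healthy and spongy flesh at 10 days. Transcript 93 was the only member with 0 reads in a library.

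Most of the raised members fell into runs in the numbering of the locus. Of the 11 listed members numbered 168 to 192, 10 belonged to the 16, and of the 6 numbered 88 to 103, 4 did, with runs taken, after the values were seen, as numbers at most 10 apart. The remaining member of the first run was transcript 169 (1067 nt), which had 244, 5724, 824 and 3039 reads, a healthy ratio of 10 over 5 days of 111-fold (97.4 to 126) and a ratio of 4.21-fold (3.90 to 4.55) for spongy fruit at 10 over 5 days. Numbers within a locus are given by the assembly, and whether neighbours share sequence is not shown by these files. In all, the 16 held 0.0349%, 0.0222%, 0.0210% and 0.199% of the locus reads. They are a small part of the locus even in the library where they are high.

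**Figure D4:**
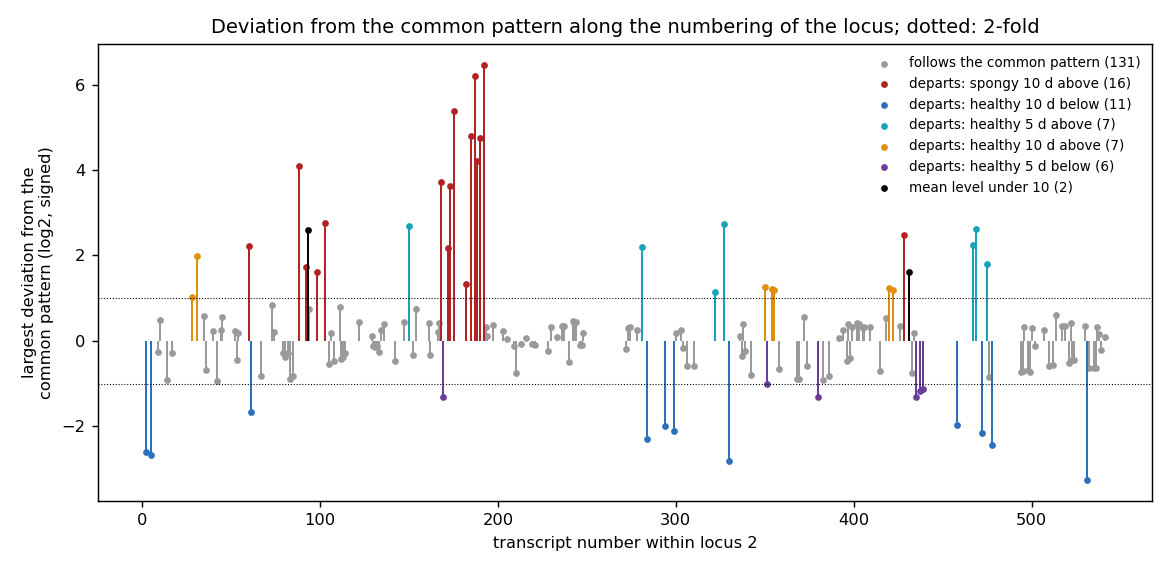
Largest signed deviation from the common pattern on the log2 scale (y axis) against the transcript number within locus 2 (x axis), 1 stem per transcript, coloured as in the other plots, with dotted lines at 2-fold. Of the 16 stems above the pattern in the spongy 10-day library 10 stand at numbers 168 to 192, up to 6.46, and the followers stay within the dotted lines.

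A flat shape marked many of the members whose healthy library of 10 days lay below the pattern or whose healthy library of 5 days lay above it. In 8 of these 18 all 4 levels, with 1 added to each, lay within 2-fold of each other at the authors' size factors. They were transcripts 281, 284, 294, 299, 469, 472, 475 and 478. Without the added 1, transcript 469 fell just outside, with its 5-day libraries 1.02 apart on the log2 scale. At these size factors flat levels are common in the table: 50.4% of the 29361 compared transcripts outside locus 2 had them. That share rests on the scaling, which puts the median log2 ratio of healthy ripening over all transcripts at -0.004. With the same total per library this median was -2.72, and 97.4% of transcripts dropped by 2-fold or more. A follower cannot have flat levels at these size factors, since the rule keeps it near a pattern that is far from flat. Transcript 478 (3981 nt), the longest of all departures, had 1863, 386, 1576 and 1720 reads, and a healthy ratio of 10 over 5 days of 0.978-fold (0.874 to 1.09). Transcript 294 (2120 nt) had 808, 206, 589 and 477 reads, a ratio of 1.20-fold (1.03 to 1.40). Transcript 299 (2345 nt) had 598, 142, 428 and 409 reads, or 1.12-fold (0.927 to 1.35).

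The other flat members were short and shallow. Transcript 472 (904 nt) had 109, 23, 58 and 78 reads, transcript 475 (541 nt) 54, 20, 33 and 43 reads, transcript 281 (712 nt) 52, 11, 38 and 19 reads, transcript 284 (574 nt) 33, 7, 21 and 31 reads and transcript 469 (460 nt) 44, 5, 15 and 19 reads. Transcript 467 (433 nt), with 37, 11, 25 and 9 reads, was nearly flat apart from the spongy 10-day library. It was the 1 member lower by 2-fold or more in spongy fruit at 10 than at 5 days, with a ratio of 0.411-fold (0.169 to 0.911) on 9 and 25 reads. These members stood at 35.0 to 67.3 normalized reads per kilobase, against a median of 54821 for the locus.

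Transcript 327 (704 nt) was the clearest reversal at high depth. It had 135183, 13745, 68758 and 34090 reads, which made it the 1 member at least 2-fold lower in healthy fruit at 10 than at 5 days, with a ratio of 0.480-fold (0.472 to 0.488). In the healthy 5-day library it took 1.18% of the locus reads, and in the healthy 10-day library 0.0253%. Its neighbour in number, transcript 330 (803 nt), had 5620, 760, 5240 and 3790 reads and a ratio of 0.638-fold (0.591 to 0.689). Transcript 322 (3896 nt) had 147031, 140485, 170149 and 141716 reads, with a ratio of 4.51-fold (4.48 to 4.54), so its level was higher at 10 days but far less so than the pattern. Transcripts 327, 330 and 322 all had fewer reads in healthy fruit at 10 than at 5 days, although that library was the deepest.

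In 6 members both spongy levels lay above both healthy levels, transcripts 2, 5, 60, 330, 478 and 531. Transcript 531 (890 nt) had 597, 128, 1862 and 1632 reads, and its ratio of spongy to healthy fruit was 4.52-fold (4.12 to 4.97) at 5 days and 4.47-fold (3.73 to 5.40) at 10 days. Transcript 5 (640 nt) had 1823, 570, 4946 and 3449 reads, with ratios of 3.93-fold (3.73 to 4.15) and 2.12-fold (1.94 to 2.32). Transcript 2 (592 nt) had 691, 215, 1800 and 1094 reads, with ratios of 3.78-fold (3.46 to 4.13) and 1.78-fold (1.54 to 2.08). The healthy stages of these 3 differed far less than the pattern, with ratios of 10 over 5 days of 1.01-fold (0.830 to 1.23), 1.48-fold (1.34 to 1.62) and 1.47-fold (1.25 to 1.71). Transcript 61 (710 nt) had 290, 373, 1106 and 1634 reads, with ratios of spongy to healthy fruit of 5.53-fold (4.85 to 6.31) and 1.54-fold (1.37 to 1.72).

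Transcript 458 (1303 nt) had 828, 404, 1228 and 1530 reads, with ratios of spongy to healthy fruit of 2.15-fold (1.97 to 2.35) at 5 days and 1.33-fold (1.19 to 1.49) at 10 days. Transcript 150 (562 nt) went the other way. It had 245, 57, 43 and 87 reads, and its ratio of spongy to healthy flesh at 5 days was 0.254-fold (0.180 to 0.353). With 1 added to each level, it was the only member besides transcript 175 lower by 2-fold or more in spongy flesh at that age. Without the added 1, transcript 469 was also lower, by 1.02 on the log2 scale.

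In 13 departures the largest deviation made healthy ripening steeper than the pattern, 7 with the healthy 10-day library above it and 6 with the healthy 5-day library below it. Many followers were also steeper, with a median healthy ratio of 19.7-fold and a highest of 50.5-fold, against 18.8-fold on the pattern. Among the members with reads in every library, transcript 31 (761 nt) had the widest ratio of healthy fruit at 10 over 5 days. It was 157-fold (134 to 184), from 161, 5341, 566 and 687 reads. Transcripts 350 (323 nt), 351 (569 nt), 354 (574 nt) and 355 (574 nt) stand next to each other in the numbering, with 6280, 144370, 43256 and 33894 reads, 7212, 113130, 43800 and 32544 reads, 7619, 137110, 39796 and 30886 reads and 8438, 149289, 43363 and 35809 reads. Their healthy ratios were 109-fold (106 to 111), 74.0-fold (72.3 to 75.8), 84.9-fold (83.0 to 86.9) and 83.5-fold (81.7 to 85.4). In spongy fruit the same members stayed level between the stages, at 0.849-fold to 0.943-fold.

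Transcript 380 (479 nt) had 3315, 71084, 24764 and 19995 reads, with a healthy ratio of 101-fold (97.8 to 105). Transcript 420 (805 nt) had 8504, 106014, 24354 and 19577 reads and 58.8-fold (57.6 to 60.2), transcript 422 (678 nt) 295, 4055, 977 and 864 reads and 64.9-fold (57.6 to 73.3), and transcript 28 (290 nt) 365, 4570, 1207 and 1265 reads and 59.1-fold (53.1 to 65.9). All of these were lowest in the healthy 5-day library and highest in the healthy 10-day library like the followers, and differed in the size of the ratio.

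Transcripts 435 (318 nt), 437 (571 nt) and 439 (584 nt) departed through a low value in the healthy 5-day library. They had 970, 9988, 9881 and 9144 reads, 1132, 9693, 9975 and 9907 reads and 1184, 9793, 10101 and 9820 reads. Spongy fruit stood above the healthy 5-day library by 14.8-fold (13.8 to 15.8), 12.8-fold (12.0 to 13.6) and 12.4-fold (11.6 to 13.1). With transcript 60, at 13.0-fold (4.02 to 67.2) on 3 and 27 reads, these were the 4 widest such ratios among the compared members. With 1 added to each level transcript 60 stood at 3.08 on the log2 scale, below transcript 14 at 3.39. At 10 days healthy fruit was higher by 3.11-fold (3.03 to 3.20), 2.79-fold (2.71 to 2.87) and 2.84-fold (2.76 to 2.92).

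Spongy flesh was set against healthy flesh at each age. At 5 days 149 of 175 compared members were higher in spongy flesh by 2-fold or more and 2 were lower, where 14.7% of all 29316 compared transcripts were higher and 9.46% lower. None (0) of the members was higher by 16-fold or more at 5 days, against 1.79% of all transcripts. A member was compared where the mean level of the 2 libraries was at least 10. At 10 days 144 of 180 members were lower in spongy flesh by 2-fold or more and 14 higher, against 11.9% and 17.8% of 29059 transcripts. The locus summed over its members stood 4.06-fold higher in spongy flesh at 5 days and 5.36-fold lower at 10 days. As a share of all reads it was 2.37 times that of healthy flesh at 5 days and 0.706 times at 10 days.

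The 2 stages share no library, and 139 of the 175 members compared at both ages were higher in spongy flesh by 2-fold or more at 5 days and lower by as much at 10. Of all 28381 transcripts compared at both ages 0.994% were so. The reverse held for 1 member, transcript 175, against 0.278% of all transcripts. Transcripts 531, 5 and 60 were the 3 members higher by 2-fold or more at both ages, against 9.21% of all transcripts, and 0 were lower at both, against 4.31%. The 14 that were higher in the spongy 10-day library were transcripts 5, 60, 88, 93, 103, 168, 173, 175, 185, 187, 188, 190, 192 and 531. At least 16-fold higher at 10 days were 8 of 180 members, against 2.82% of all compared transcripts. With the same total per library 97 of 176 members were higher by 2-fold or more at 5 days and 6 lower, and at 10 days 36 of 179 were higher and 15 lower, so the count of lower members at 10 days rests on the scaling. That scaling made 8.12% of all transcripts 2-fold or more higher in spongy flesh at 5 days and 36.0% lower by as much, with a median of -0.77 on the log2 scale. For the later age the shares were 86.8% and 0.542%, with a median of 1.92.

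**Figure D5:**
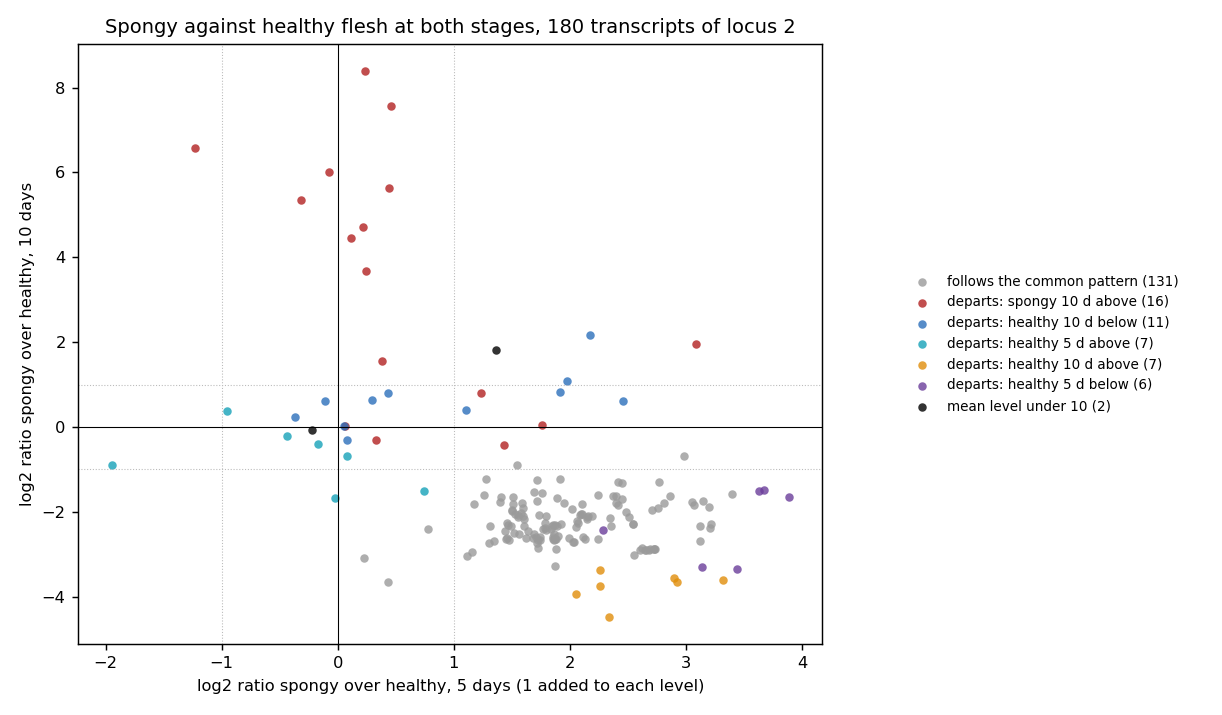
Log2 ratio of spongy over healthy flesh at 5 days (x axis) and at 10 days (y axis), with 1 added to each level, 1 point per transcript of locus 2, coloured by whether it follows the common pattern or how it departs. The followers fill the lower right, higher in the spongy 5-day library and lower at 10 days, and the members raised most in the spongy 10-day library stand at the top, up to 8.39.

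Ripening of healthy fruit was the widest contrast for the locus. Of 177 compared members 157 were at least 2-fold higher at 10 than at 5 days and 1 was lower, against 7.97% and 11.1% of all 28528 compared transcripts. At least 16-fold higher were 106 members, against 0.887% of all transcripts. The summed level was 22.4-fold higher at 10 days, and the share of reads 3.34 times that at 5 days. With the same total per library 128 of 175 members were higher by 2-fold or more at 10 days and 22 were lower by as much. Under that scaling 0.998% of all transcripts were higher and 97.4% lower, with a median over all transcripts of -2.72 on the log2 scale.

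In spongy fruit the stages differed little for most members. Of 179 compared members 159 were within 2-fold, 19 higher by 2-fold or more at the later age and 1 lower, where 6.16% of all 29193 transcripts were higher and 6.06% lower. The 19 were the 16 members raised above the pattern in that library together with transcripts 93, 150 and 169. At least 16-fold higher were 11 members, transcripts 88, 103, 168, 173, 175, 185, 187, 188, 190, 192 and 428, against 0.921% of all transcripts. Every member of this short list was also within the set that departed through the spongy 10-day library. A 16-fold ratio, against 1.09-fold on the pattern, largely fixes that overlap. The list was taken with 1 added to each level. Without the added 1, transcript 93, which is not in that set, also passed, at 4.24 on the log2 scale from 2 and 33 reads. The summed level stood at 1.03-fold, and these members held few of the reads.

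By DESeq2 in the authors' deposited table, 0 of the 180 members had an adjusted p under 0.05 in any of the 4 comparisons. For healthy fruit at 10 over 5 days the authors' deposited table held 143 members with an unadjusted p under 0.05, all of them higher at 10 days, where 1.33% of all transcripts had such a p. Of these 143, 127 followed the pattern. The smallest unadjusted p in the authors' deposited table (DESeq2) was 0.00600 for transcript 435, with a log2 fold change of 5.60, a standard error of 2.04 and an adjusted p of 0.999. For spongy fruit at 10 over 5 days 8 members had an unadjusted p under 0.05 in the authors' deposited table, transcripts 88, 103, 173, 175, 185, 188, 190 and 428, against 0.406% of all transcripts. For spongy against healthy fruit the authors' deposited table gave 0 members at 5 days, where 1.74% of all transcripts were under 0.05, and 1 at 10 days, transcript 175, where 2.18% were. With 1 library per group that test had no replicates.

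Set beside other loci with many transcripts, locus 2 had a steep shared pattern at the authors' size factors. Of the 61 loci with at least 20 compared transcripts, the median difference between the highest and the lowest library of a locus's own pattern was 1.01 on the log2 scale, and in locus 2 it was 4.23, the first in rank. Locus 3, with 649 listed transcripts, had a nearly flat pattern with a difference of 0.04. Within 2-fold of their own pattern were 73.6% of the compared members of locus 2 and 82.6% of locus 3, against a median of 91.7% over the 61 loci. Because the locus was selected in part on its ratios between groups, its high rank in steepness follows in part from that choice. These are descriptions of 1 library per group, and the difference between loci was not tested.

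Outside the locus, the transcripts nearest to its pattern with a mean level of at least 100 were listed, with no locus taken more than once. Those listed were mostly short single transcripts, although the rule can leave out further transcripts of a locus with many. Locus_14235_Transcript_1_1_Confidence_1.000_Length_232, at a root mean square distance of 0.11 on the log2 scale over the 4 libraries, had 1034, 4432, 3320 and 2896 reads. Locus_977_Transcript_43_53_Confidence_0.082_Length_2613 (0.24) had 162, 740, 304 and 358 reads. Locus_14251_Transcript_1_1_Confidence_1.000_Length_248 (0.25) had 1152, 6301, 2598 and 3381 reads. Locus_10528_Transcript_1_1_Confidence_0.833_Length_254 and Locus_14265_Transcript_1_1_Confidence_1.000_Length_264 came next, both at 0.26. Within locus 2 the nearest member lay at 0.03, but the pattern was taken from the members themselves, so a closer member there is in part how it was made. A pattern over 4 libraries says nothing of shared sequence.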

How the data were processed

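RNA of 4 mango flesh libraries, 1 per group, was sequenced, and groups were taken from the sample labels. Per the submitters' processing notes the tools named were CASAVA 1.8.2, Bowtie2 2.2.3 and DESeq2. The assembler, the build and the way reads matching several transcripts were counted are not stated in those notes, the labels or the headers. Each of the 4 deposited tables compares 2 libraries. Per the file headers they hold the authors' mean normalized counts per transcript (a signal, counts divided by size factors), log2 fold changes with their standard errors, a test score and DESeq2 p-values, raw and adjusted. With 1 library per group those p-values rest on no replicates. Columns of per-sample values left unused numbered 0.

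The level in each library was solved from the authors' means and log2 fold changes, and size factors were found as the steps that make low values whole: 99.98% of the 103986 values under 1000 reads lay within 0.05 of a whole number, and values under 0.35 reads were set to 0. Log2 ratios had 1 added to each level, required a mean level of 10 in the libraries compared and were counted at 2-fold, over the whole table for the background. Depth was 52778920 to 75039529 reads, and intervals cover counting error only. The steps were tested on simulated data. Transcripts named by rule were the 10 of highest mean level, the 10 farthest from and 5 nearest to the pattern, the 3 shortest and 3 longest, those with 0 reads in a library, those 2-fold against the locus's direction and the 3 on either side of the limit; the other departures were named after their values were seen. Alternatives changed the added value, the level minimum, the scaling, the distance allowed and the pattern. The members, rules and lists were chosen with earlier results of these data known. None of the transcript identifiers (0 of 180) matched the 38372 genes of the reference table, and no sequence was used here. Computation used scipy 1.17.1, pandas 2.3.3 and numpy 2.4.6 under Python 3.11.15, with plots from matplotlib 3.10.9.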

Additional observations from a re-analysis of the deposited data

Results flagged for a closer look

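The median log2 ratio of spongy over healthy fruit across the locus 2 transcripts was 1.86 at 5 days, over 175 transcripts, and -2.11 at 10 days, over 180. The medians have opposite signs, and 139 transcripts were at least 2-fold higher at 5 and lower at 10 days. Each value rests on 1 library per group, so the difference between the stages was not tested. With the same total reads per library the medians were 1.08 and -0.19.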

How the results depend on the processing

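Of the recomputed values 95 held and 36 moved, and no median changed sign. A count was taken as held within 1.5-fold of its main value, so 102 followers held against 131. A median held when it moved by less than the counting error of the member nearest to it. The shares of reads and the rank correlation were listed as moved without a limit. The scaling moved most, and it turned the balance of calls at 10 days, from 14 transcripts higher and 144 lower in spongy fruit to 36 higher and 15 lower with the same total reads per library. With the same total reads per library the median log2 ratio was 1.08 for spongy against healthy fruit at 5 days, -0.19 at 10 days, 1.53 for healthy ripening and 0.052 for spongy ripening. The count at least 2-fold higher became 97 at 5 days, and those lower 6 at 5 days and 22 in healthy ripening. Equal totals outside loci 2 and 3 gave medians of 1.76, -1.58, 3.55 and 0.0023, and 3 transcripts were lower in healthy ripening. TMM factors gave -2.08 at 10 days and 4.25 in healthy ripening, and centring on all transcripts gave -2.12 at 10 days. A level minimum of 50 gave medians of 1.89, -2.14 and 4.29 for the first 3 comparisons, with 1 transcript lower at 5 days and 0 in spongy ripening, and no minimum gave 4.25 in healthy ripening. Adding 10 gave 4.24 in healthy ripening, with 1 lower at 5 days and 0 in spongy ripening. Counting nearly equal transcripts once, an alternative chosen after seeing the data like the same-total pattern counts, gave 1.77, -2.05, 4.18 and 0.11. With a limit of 1.5-fold 76 departed from the pattern. Without the transcript of highest mean level the locus held 21.1%, 70.1%, 50.03% and 49.7% of reads. Per kilobase the rank correlation of length and level was 0.47. The cause of the scaling differences was not tested. No paired analysis was possible because each group holds 1 library, and for the same reason no replicate could be left out. At low depth, under 20 reads in a library, the size of a ratio is uncertain.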
